A study of Mus musculus with 28 samples.

Results

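The arrays compared here are the 9 mouse hearts with the highest and the 9 with the lowest signal of Adipoq, which encodes the fat cell hormone adiponectin, out of 28 hearts in all. The members were found by ranking the 28 arrays on the deposited signal of the 1 Adipoq probe set of the array, and the other 10 arrays, ranks 10 to 19, were kept apart. The study measured total RNA of frozen heart tissue of 28 mice, 1 array per animal, in 4 groups of 7. These were controls, controls given the PPARalpha activator WY14643, animals of the del337TR strain, and del337TR animals given WY14643. The series title ties the strain to resistance to thyroid hormone, and the design text calls it a deletion strain. Age, sex, zygosity, dose, duration of treatment and the way of dissection do not stand in the labels. Nothing beyond the count of individuals says how litters or cages were spread over the groups.

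Adiponectin is made almost only by fat cells, which release it into the blood, where it acts on receptors of muscle, liver and blood vessels. A mouse heart carries small depots of fat cells outside the muscle, around the root of the great vessels, the groove between atria and ventricles and the sac of the heart. Fat cells store triglyceride in a single large droplet coated by perilipins and Cidec, release it through the lipases Pnpla2 and Lipe, and are recognised by hormones such as resistin (Retn) and leptin (Lep). Several genes that a fat cell uses heavily, among them Fabp4, Cd36 and Lpl, are also used by the heart muscle or its capillaries, so they do not stand for fat cells alone in this tissue.

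The promoters of Adipoq, which set the ranking, and of Cyp2e1, one of the genes that followed it most closely, are shown so that the region read from each can be seen. Each is the 250 bases before the start of the gene on its own strand, 5′ to 3′, from RefSeq (GRCm38.p6), at chr16:23146286-23146535 on the plus strand for Adipoq and chr7:140763569-140763818 on the plus strand for Cyp2e1. Capitals mark the letters CCAAT, the CCAAT box, on either strand (written ATTGG on the other) and TATAAA, the TATA box.
Adipoq: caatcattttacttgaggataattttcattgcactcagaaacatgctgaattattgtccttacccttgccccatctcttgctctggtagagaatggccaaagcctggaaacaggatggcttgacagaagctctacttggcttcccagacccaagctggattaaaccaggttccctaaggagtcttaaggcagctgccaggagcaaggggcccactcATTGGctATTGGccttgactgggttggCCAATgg
Cyp2e1: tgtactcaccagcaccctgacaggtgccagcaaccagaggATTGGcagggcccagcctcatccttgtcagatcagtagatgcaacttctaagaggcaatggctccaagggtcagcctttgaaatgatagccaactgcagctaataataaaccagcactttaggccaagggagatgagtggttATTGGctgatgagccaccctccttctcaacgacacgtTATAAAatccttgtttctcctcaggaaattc
The Adipoq window held 3 matches to CCAAT and the Cyp2e1 window 2, and 33.8% of 32851 mouse promoter windows of this length held at least 1. TATAAA occurred 1 time in the Cyp2e1 window and not in that of Adipoq, against 12.4% of all windows. The letters AGGTCA, the core bound by many nuclear receptors, were in neither window on either strand and in 14% of all windows. Motifs were counted without regard to overlap with each other. Of the other close followers, Car3 had no entry in the promoter table used here.

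Adipoq signals ran from 81.2 to 215 in the high arrays, with a mean of 122 ± 48.0 (SD, n = 9), and from 16.9 to 39.7 in the low arrays, with a mean of 28.3 ± 7.81. These values chose the arrays and are given as a description. At the upper limit the last high array stood at 81.2 and the first middle array at 73.1. The lower limit was narrow, with 40.1 in the last middle array and 39.7 in the first low array.

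The 4 groups were spread unevenly over the ranking. Untreated del337TR hearts took 5 of the 9 highest ranks and none of the 9 lowest, whereas del337TR hearts with WY14643 took 4 of the lowest and none of the highest. The untreated del337TR arrays had Adipoq signals of 215, 103.3, 94.4, 90.7, 84.8, 71.9 and 40.1, with a mean of 100.03 ± 54.7 (SD, n = 7). The del337TR arrays with WY14643 had 65.6, 62.4, 49.9, 33.2, 32.3, 23.2 and 16.9, with a mean of 40.5 ± 19.04. All 7 treated del337TR arrays thus lay below 6 of the 7 untreated ones, and the 2 groups overlapped only through the untreated array at 40.1.

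Controls held both ends of the ranking. Untreated controls had Adipoq signals of 179.4, 100, 47.3, 33.3, 32.3, 26.1 and 17.5, a mean of 62.3 ± 58.3 (SD, n = 7), with 2 arrays in the high set and 4 in the low set. Controls with WY14643 had 152, 81.2, 73.1, 67, 59.3, 48.1 and 39.7, a mean of 74.3 ± 37.1, with 2 high arrays and 1 low one. Their range lay inside that of the untreated controls. In limma's fit over all 28 arrays, Adipoq was lower with WY14643 in del337TR by a log2 difference of -1.30 ± 0.44 (SE, limma adjusted p = 0.767) and differed with WY14643 in controls by 0.58 ± 0.44 (limma adjusted p = 0.823). Without treatment the strain difference was 0.97 ± 0.44 (limma adjusted p = 0.999), under WY14643 it was -0.90 ± 0.44 (limma adjusted p = 0.561), and the 2 effects of WY14643 differed by -1.87 ± 0.62 (limma adjusted p = 0.956). None of the 5 passed the threshold of 0.05 after adjustment over all probe sets. Unadjusted p from limma for Adipoq alone were 0.0062, 0.197, 0.034, 0.048 and 0.0053 in the same order. With sex as a term, read from the arrays as described below, they were 0.024, 0.250, 0.070, 0.095 and 0.019.

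**Figure D1:**
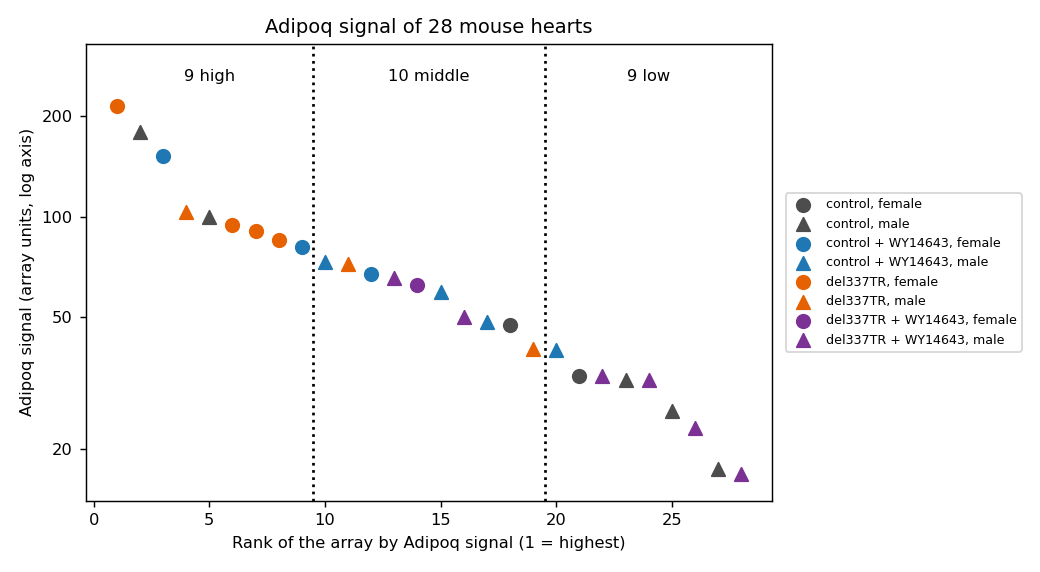
Deposited Adipoq signal (array units, log axis) of each of the 28 hearts against its rank, coloured by strain and treatment, with circles for female and triangles for male arrays by Xist. Dotted lines mark the 9 high and the 9 low arrays; 5 of the high arrays are untreated del337TR hearts and 4 of the low ones are del337TR hearts with WY14643.

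Sex moved with the ranking. Xist, which is expressed from the inactive X chromosome, had signals from 430.7 to 929.5 in 10 arrays and from 3.2 to 43.1 in the other 18. The Y-linked Eif2s3y was between 1.1 and 33.2 in the first and between 494.7 and 658.7 in the second. By these genes 6 of the 9 high arrays and 1 of the 9 low arrays were female. Adipoq had a median of 83 in the 10 female arrays (33.3 to 215) and of 44.1 in the 18 male arrays (16.9 to 179.4). Females made up 4 of 7 untreated del337TR arrays, 1 of 7 treated del337TR arrays, 2 of 7 untreated and 3 of 7 treated controls. With sex as a term, the difference of Adipoq with WY14643 in del337TR was -1.07 ± 0.45 (SE, limma adjusted p = 0.822).

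Array quality was similar over the ranking, apart from 1 measure. The median signal of an array lay between 60 and 77.8 over all 28. The ratio of the 3′ to the 5′ control probe set of beta-actin was 1.41 ± 0.18 (SD, n = 9) in the high, 1.27 ± 0.08 (n = 10) in the middle and 1.20 ± 0.07 (n = 9) in the low arrays. For Gapdh the same ratio was 0.825, 0.805 and 0.811. The part of this difference in the results below was not tested.

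Very few genes followed Adipoq without overlap. Of 45036 other probe sets, 5 had a mean log2 signal at least 1.5-fold higher in the high arrays with all 9 high arrays above all 9 low ones, which is 0.0111% of the array. They were both probe sets of Car3, 1 each of Npnt and Xiap, and 1417867_at, which has no gene in the annotation used here. In the opposite direction 0 probe sets met the same rule (0%), and with no limit on the fold 6 were separated upward and 3 downward. The sets were chosen by a measured value, so these differences are a description and carry no test. In whole tissue, more cells of a type and more RNA per cell cannot be told apart.

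Car3, carbonic anhydrase 3, an abundant soluble protein of fat cells and slow muscle fibres, had the highest correlation with Adipoq among genes with 1 symbol. Its brighter probe set had a lowest signal of 479.9, a median of 643.4 and a highest of 1311.5 in the high arrays, and 62.3, 204.6 and 370.2 in the low arrays. Every high array was therefore above every low one, with a gap between 370.2 and 479.9. The log2 difference was 2.18, from a mean of 774 ± 315 (SD, n = 9) against 181 ± 93.5. Its dimmer probe set had a mean of 282 ± 96.7 against 90.8 ± 45.4 and a log2 difference of 1.78. Across all 28 arrays the log2 signals of the brighter probe set and Adipoq had a Pearson correlation of 0.87 and a Spearman correlation of 0.87, and Pearson's value was 0.88 without the 2 arrays farthest from the median of Adipoq. Inside the groups of 7 arrays it was 0.92 in untreated controls, 0.75 in treated controls, 0.93 in untreated and 0.51 in treated del337TR animals.

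Cyp2e1, a cytochrome P450 that oxidises ethanol and ketone bodies, came next among the bright genes. In the high arrays its signal had a lowest value of 133.5, a median of 284.4 and a highest value of 598.2, and in the low arrays 31.1, 92.1 and 156.3. The sets overlapped slightly, with the high array above the low one in 79 of the 81 pairs. Its log2 difference was 1.79, from 310 ± 148 (SD, n = 9) against 88.0 ± 36.2. The correlation with Adipoq was 0.76 over 28 arrays, positive in 3 of the 4 groups and -0.21 in treated del337TR animals.

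The unnamed probe set 1417867_at had a lowest signal of 166.9, a median of 213.7 and a highest of 475.3 in the high arrays, against 40.2, 96 and 150.7 in the low arrays. Its log2 difference was 1.503, and its correlation with Adipoq was 0.82 over 28 arrays and above 0 in all 4 groups.

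Npnt, the matrix protein nephronectin, had the largest difference of the probe sets that met the rule, 2.86, but at signals that lay below the lowest array median, 60, in all high and low arrays except 1 high array. Its probe set 1452107_s_at had a lowest value of 21.8, a median of 28 and a highest of 108.9 in the high arrays, and 1.6, 3.7 and 20.1 in the low arrays. With 16 added to every signal the difference of Npnt was 1.21. A second Npnt probe set, 1452106_at, differed by 1.61, and the other 3 by -0.12, -0.06 and 0.14, so the probe sets of this gene did not move together. Xiap, an inhibitor of caspases, had 46.9 ± 13.9 (SD, n = 9) against 24.1 ± 5.51 at 1450232_at, a difference of 0.94. Its 6 other probe sets differed by between -0.53 and 0.21, and the brightest, 1437533_at, by 0.06.

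**Figure D2:**
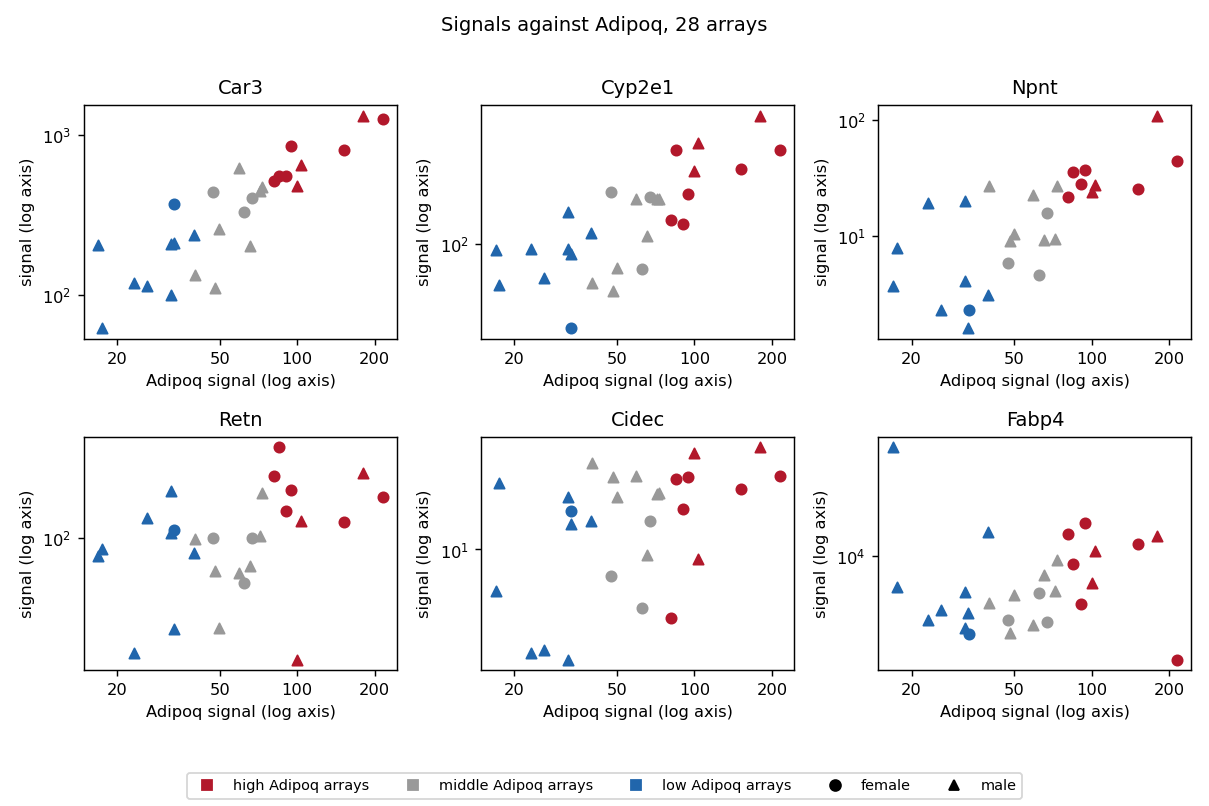
Signals of Car3, Cyp2e1, Npnt, Retn, Cidec and Fabp4 (array units, log axes) against that of Adipoq in 28 hearts, with high, middle and low Adipoq arrays in red, grey and blue and circles for female and triangles for male arrays. Car3 and Npnt separate high from low arrays, whereas Retn, Cidec and Fabp4 overlap.

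The other genes most like Adipoq over the 28 arrays, by Pearson correlation of log2 signals with 1 probe set per gene, were of mixed kinds. They were Hsd3b7, an enzyme of bile acid synthesis (r = 0.72), the fatty acid desaturase Scd1 (0.72), the interferon-induced Ifi27l2a (0.72), the calcium-dependent phosphodiesterase Pde1b (0.72), the integrin chain Itga8 (0.69), the retinol carrier Rbp4 (0.68), Fasn, the fatty acid synthase (0.67), and Epyc, a small proteoglycan of cartilage matrix (0.66). These values share arrays with the ranking and are descriptions. Scd1 had 964 ± 320 (SD, n = 9) in the high and 594 ± 62.1 in the low arrays, a log2 difference of 0.64. For Itga8 the means were 337 ± 205 and 160 ± 30.4, and its 2 highest signals, 762.7 and 558.3, belonged to the 2 arrays with the highest Adipoq. Ifi27l2a had 346 ± 84.7 and 198 ± 79.4.

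Relaxing the overlap rule to 90% of the 81 pairs, a choice made after seeing the data, gave 34 probe sets higher (0.0755% of the array) and 38 lower (0.0844%). Cyp2e1, Scd1, Ifi27l2a and Pde1b joined the genes above, with the high array on top in 79, 75, 74 and 75 pairs. Among the lower ones 2 bright genes were picked after their values were seen. Aplp2, an amyloid precursor-like protein, had 922 ± 208 (SD, n = 9) in the high and 1368 ± 158 in the low arrays. Thbs4, a matrix thrombospondin, had 716 ± 348 and 1154 ± 316. Many of the others were dim, such as Neto2 with a highest signal of 3.9 in the high arrays.

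The 2 other adipocyte markers followed Adipoq only in part. Retn had a lowest signal of 32.3, a median of 145.5 and a highest of 231.6 in the high arrays, and 34.5, 90.2 and 154.3 in the low arrays. The high array was above the low one in 66 of 81 pairs, and the control that ranked 5 for Adipoq had the lowest Retn of all 28. The log2 difference of Retn was 0.62 and its correlation with Adipoq 0.37 over 28 arrays, or 0.12 after removal of the group means. Cidec, which coats and fuses lipid droplets, had a lowest signal of 3.3, a median of 31.1 and a highest of 51.8 in the high arrays, and 1.7, 15 and 28.9 in the low arrays. Its log2 difference was 1.502, or 0.61 with 16 added to every signal, and 67 of 81 pairs had the high array on top. Because the defining markers overlapped in this way, the sets are called high and low Adipoq arrays and not fatty and lean hearts.

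The fat cell lists gave a mixed picture as a whole. Over all 18192 genes with 1 symbol other than Adipoq, 9501 were higher and 8691 lower in the high arrays, with a median log2 difference of 0.01. Of the adipocyte hormones both members matched to a probe set were higher, Retn as above and Lep, leptin, by 0.16 at 23.9 ± 18.3 (SD, n = 9) against 18.7 ± 11.3. The planned adipocyte marker Cfd, also on this list, matched no probe set with 1 symbol. Plin1 of the droplet list and Adrb3 of the list of uptake, enzymes and regulators were unmatched as well. Because 1417867_at has no gene in the annotation, whether Cfd is among the followers cannot be told here. Among 9 droplet and lipolysis genes 7 were higher and 2 lower, with a median of 0.23. G0s2, an inhibitor of the lipase Pnpla2, differed by 0.66 (589 ± 414 against 317 ± 112), and the droplet coat gene Plin4 by 0.32 (2622 ± 644 against 2110 ± 585). Plin2 differed by 0.27, Plin5 by 0.23, Lipe by 0.15 and Pnpla2 by 0.00. Mgll, the monoglyceride lipase, and Abhd5, an activator of Pnpla2, were at -0.12 and -0.13.

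Of 15 genes of uptake, enzymes and regulators 10 were higher and 5 lower, with a median of 0.08, and Car3 was the only one that met the rule. Trarg1, which takes part in the traffic of the insulin-dependent glucose carrier, differed by 1.06 (65.6 ± 38.8 against 32.8 ± 27.9, SD, n = 9) and had a correlation of 0.20 with Adipoq. Aqp7, the glycerol channel of fat cells, differed by 0.51, the receptor gene Acvr1c by 0.46, Pparg, the main regulator of fat cell formation, by 0.39, Pck1 by 0.25 and Sncg by 0.12. Some genes that the heart itself uses, Fabp4, Slc2a4, Lpl and Cd36, lay close to 0. Fabp4 had 9761 ± 1149 against 9332 ± 1837, a log2 difference of 0.08. Slc2a4, the insulin-dependent glucose carrier, differed by 0.03, Lpl by 0.01 and Cd36 by -0.03. The other members Gpd1, Adig, Mrap and Cebpa were at -0.11, -0.14, -0.14 and -0.15, so values near 0 were not confined to genes used by the heart.

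Brown fat genes had 7 of 10 members higher and 3 lower, with a median of 0.20. Ucp1, which uncouples respiration in brown fat, had 26.5 ± 32.6 (SD, n = 9) in the high and 12.1 ± 4.55 in the low arrays, and the range in the high arrays was 8.9 to 112.4. The value of 112.4 was that of control replicate 6, and the next highest of the high arrays was 24. The log2 difference of Ucp1 was 0.70, that of Zic1, a transcription factor of brown fat precursors, 1.07, and that of Otop1 0.85. Mean signals of Zic1 were only 19.3 and 10.9 and those of Otop1 27.9 and 18.6, below the lowest array median of 60, as were those of Ucp1. Fabp5, Elovl3, Prdm16 and Dio2 differed by 0.35, 0.23, 0.16 and 0.11. Cidea, which both brown fat and mouse heart express, was at -0.11 (1186 ± 299 against 1256 ± 173). Lhx8 was at -0.58 with mean signals of only 3.86 and 5.12, and Slc27a2 at -0.83 with only 12.5 and 21.

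Lipogenic genes had 11 of 16 members higher, with a median of 0.16, led by Scd1 (0.64), Fasn (0.50) and the phosphatidate phosphatase Lpin1 (0.41). The PPAR targets of fatty acid use had 5 of 12 higher and a median of -0.06. The largest values there were those of Acot1, an acyl-CoA thioesterase, at 0.27 and of Ucp3 at 0.24. Cardiomyocyte genes had 5 higher and 5 lower and a median of -0.00, and the 16 respiratory chain genes a median of -0.01.

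**Figure D3:**
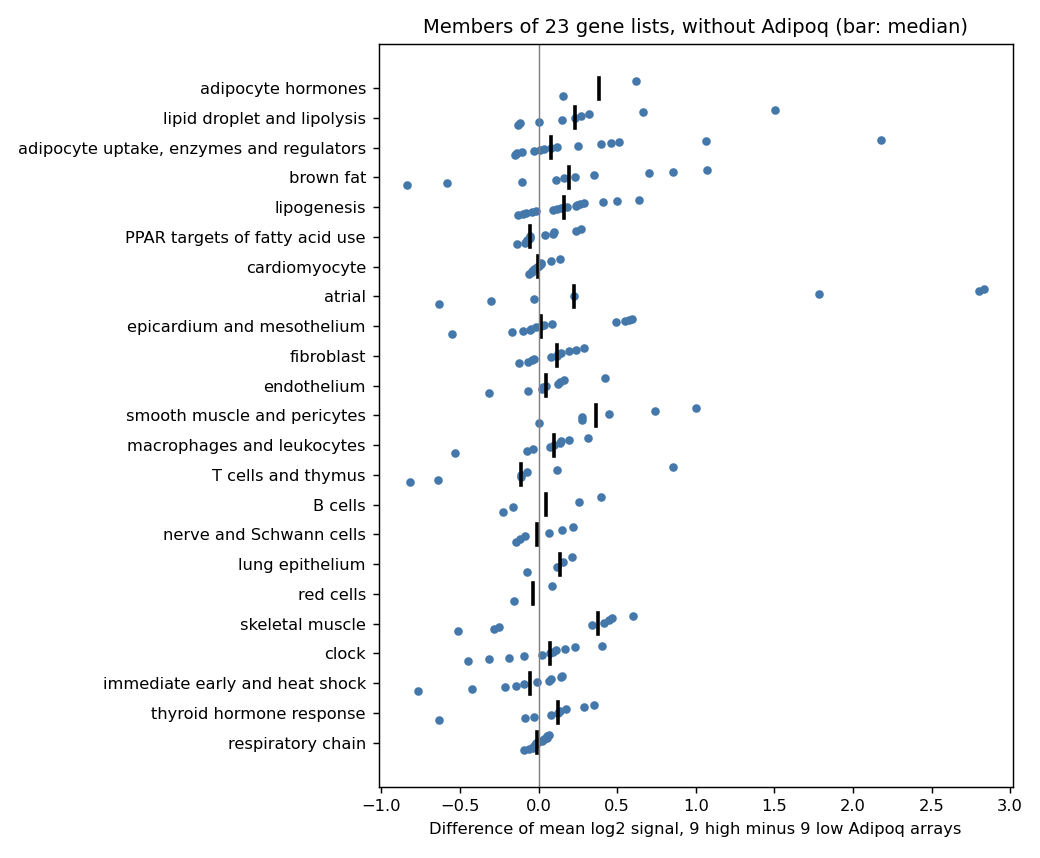
Difference of mean log2 signal, 9 high minus 9 low Adipoq arrays, for each member of 23 gene lists (points) with the median of each list (bar), without Adipoq. Car3 at 2.18 and Cidec at 1.502 stand off from the other members of the fat cell lists, and 3 atrial genes lie between 1.78 and 2.83.

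Some genes of other parts of the heart differed between the sets as well, although none met the rule. Among 7 atrial genes 4 were higher and 3 lower, with a median of 0.23. Sln, sarcolipin, an inhibitor of the calcium pump in atria, differed by 2.83, Myl7, the atrial regulatory light chain, by 2.80 and Myl4, an atrial essential light chain, by 1.78. Myl7 had a lowest signal of 1073.8, a median of 2424.3 and a highest of 7245.9 in the high arrays, and 4.8, 299.5 and 7967.7 in the low arrays. No high array was therefore among the lowest for Myl7, but the highest value of all fell in a low array, and only 61 of 81 pairs had the high array on top. Nppa was at -0.03 and Bmp10 at -0.63. When arrays were ranked on Retn and Cidec in place of Adipoq, Myl7 differed by 0.27, Sln by -0.13 and Myl4 by -0.20, with the high array on top in 42.0%, 40.7% and 40.7% of pairs, while Tagln differed by 0.66. The summed signal of the atrial list ran from 6860.7 to 50402.7 in the high and from 3707.7 to 51755.8 in the low arrays. After adjustment for a score of Myl4, Myl7 and Sln the difference was 1.74 for Car3 and 1.22 for Cyp2e1. That of Adipoq itself was then 1.77, against 2.08 without adjustment. The score did not include the 3 lower atrial genes.

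All 6 smooth muscle and pericyte genes were higher in the high arrays, with a median of 0.36, and none met the rule. Cnn1, calponin, differed by 1.00, Tagln, transgelin, by 0.74 and Myh11, the smooth muscle myosin heavy chain, by 0.45. Tagln had a lowest signal of 276.2 and a highest of 1248.7 in the high arrays, against 208.2 and 462.6 in the low arrays. Its correlation with Adipoq was 0.66 over the 28 arrays. The summed signal of the list ran from 8495.4 to 12358.9 and from 8656.2 to 10749.6. The part of the atrial and smooth muscle genes in the results was not tested beyond the adjusted values above.

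**Figure D4:**
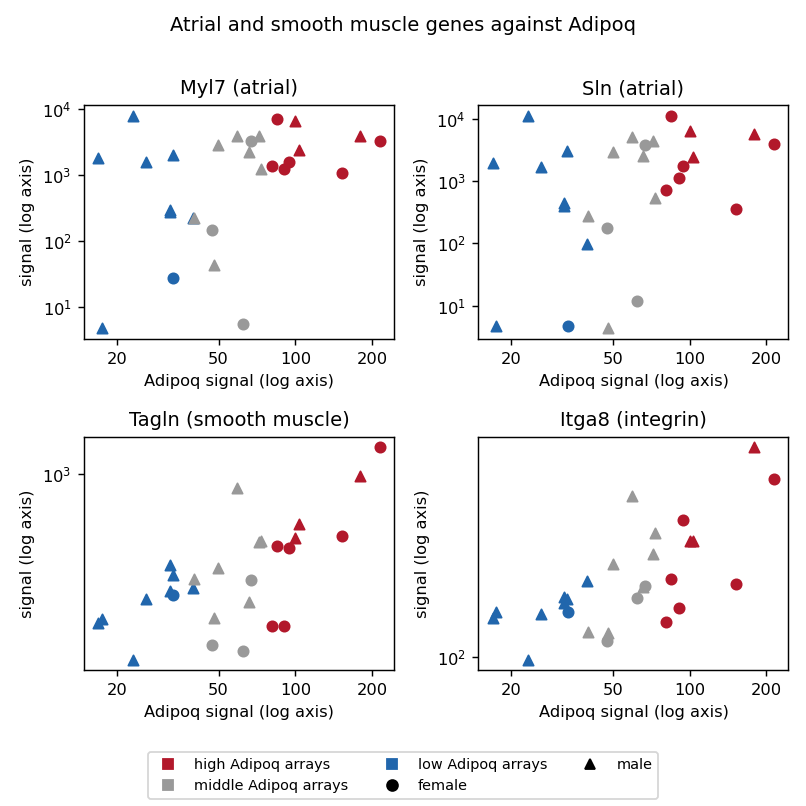
Signals of the atrial genes Myl7 and Sln, the smooth muscle gene Tagln and the integrin gene Itga8 (array units, log axes) against that of Adipoq in 28 hearts, with high, middle and low arrays in red, grey and blue and circles for female and triangles for male arrays. Low signals of Myl7 are seen only among middle and low arrays, while the highest Myl7 signal, 7967.7, is that of a low array.

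The lists of other cell types had medians between -0.11 and 0.38. Epicardial and mesothelial genes had 7 of 13 higher (median 0.02), fibroblast genes 7 of 11 (0.12), endothelial genes 7 of 9 (0.05), macrophage and leukocyte genes 6 of 9 (0.10), nerve and Schwann cell genes 3 of 6 (-0.01), T cell genes 2 of 7 (-0.11), B cell genes 2 of 4 (0.05) and lung genes 3 of 4 (0.14). Red cell genes had 1 of 2 higher (-0.04). Vwf, the von Willebrand factor, differed by 0.43 and Cdh5, the endothelial cadherin, by -0.32. Skeletal muscle genes had 5 of 8 higher (0.38). These 5 were dim, with means in the high arrays of 18.8 (Tnnt3), 20.3 (Myh1), 33.0 (Myh4), 59.3 (Mylpf) and 69.5 (Pvalb). The bright Acta1, skeletal actin, which the heart also makes, was lower by a log2 difference of -0.51 (7591 ± 2003 against 10592 ± 1819, SD, n = 9). Clock genes had 7 of 11 higher (0.07), immediate early and heat shock genes 4 of 10 (-0.05) with Hspa1a at -0.77, and thyroid hormone response genes 6 of 9 (0.12) with Myh7, a myosin of slow contraction, at -0.63.

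Differences inside each sex were smaller for some genes than over all arrays. Among males, with the 6 highest of 18 against the 6 lowest, the log2 difference was 2.04 for Car3, 1.54 for Cyp2e1, 2.06 for Cidec and 0.11 for Retn. Among females, 5 against 5, it was 0.91, 1.28, 1.88 and 0.53. Adipoq itself differed by 1.96 among males and by 1.09 among females, whose arrays were split with no middle set. Car3 had a median signal of 532.55 (328.9 to 1251.1) in the 10 female and of 210.5 (62.3 to 1311.5) in the 18 male arrays. Its correlation with Adipoq was 0.88 in females and 0.84 in males. After adjustment for sex the differences of Car3 and Cyp2e1 were 1.51 and 1.57, and 0 probe sets met the rule. That of Adipoq was then 1.63, against 2.08 without adjustment.

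The 10 middle arrays, which took no part in the comparison of high with low arrays, were used to test whether signals still followed Adipoq. They were held out for the 5 probe sets that met the rule and for those of the relaxed rule, but not for genes named by their correlation over all 28 arrays. Car3, Cyp2e1, Scd1, Ifi27l2a and Pde1b were named in both ways. The slope of log2 signal on log2 Adipoq was fitted for 45036 probe sets with limma. In this test 0 passed an adjusted p of 0.05 (0%), 1795 had an unadjusted p under 0.05, and 791 of these, 1.76% of the array, had a slope above 0. Adipoq ran only from 40.1 to 73.1 in these 10 arrays, against 16.9 to 215 over all 28. With so narrow a range, the count of 0 cannot show that signals did not follow Adipoq. Car3 had a slope of 1.70 ± 0.73 (SE, 10 arrays, limma adjusted p = 1.00) at its brighter probe set. At the dimmer one it was 2.37 ± 0.86 (limma adjusted p = 1.00), and 0.69 ± 0.69 without del337TR replicate 5, whose signal of 20 was the lowest of the 28. Cyp2e1 had a slope of 1.63 ± 0.73 (limma adjusted p = 1.00). Without that array the slopes of the brighter Car3 probe set and Cyp2e1 were 1.35 ± 0.96 and 1.46 ± 0.98. Neither passed over all probe sets with or without it. With the atrial score as a term, added after seeing the data, they were 1.38 ± 0.80 and 1.15 ± 0.75. The atrial genes themselves had larger slopes with larger errors, 4.81 ± 3.68 for Sln, 4.21 ± 3.31 for Myl7 and 3.59 ± 2.21 for Myl4 (limma adjusted p = 1.00 for each).

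Among the other genes, Ifi27l2a had a middle slope of 0.84 ± 0.36 (SE, limma adjusted p = 1.00). Itga8 and Fasn entered only through their correlation over arrays that include these 10, so their slopes, 1.40 ± 0.58 and -0.02 ± 0.31, are a description with no test. The probe set 1417867_at had 0.61 ± 0.57, Retn 0.53 ± 0.52, Xiap 0.19 ± 0.92, Npnt 0.02 ± 0.98, Scd1 -0.02 ± 0.37 and Cidec -0.80 ± 1.20, and for each of these the standard error was close to or above the size of the slope. Trarg1 had a slope of -2.15 ± 0.71 (limma adjusted p = 1.00), the opposite of its difference between high and low arrays. Of the 34 probe sets higher under the relaxed rule 20 had a slope above 0 and 4 also an unadjusted p under 0.05, and of all probe sets 46.8% had a slope above 0. Of the 38 lower ones 28 had a slope below 0.

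**Figure D5:**
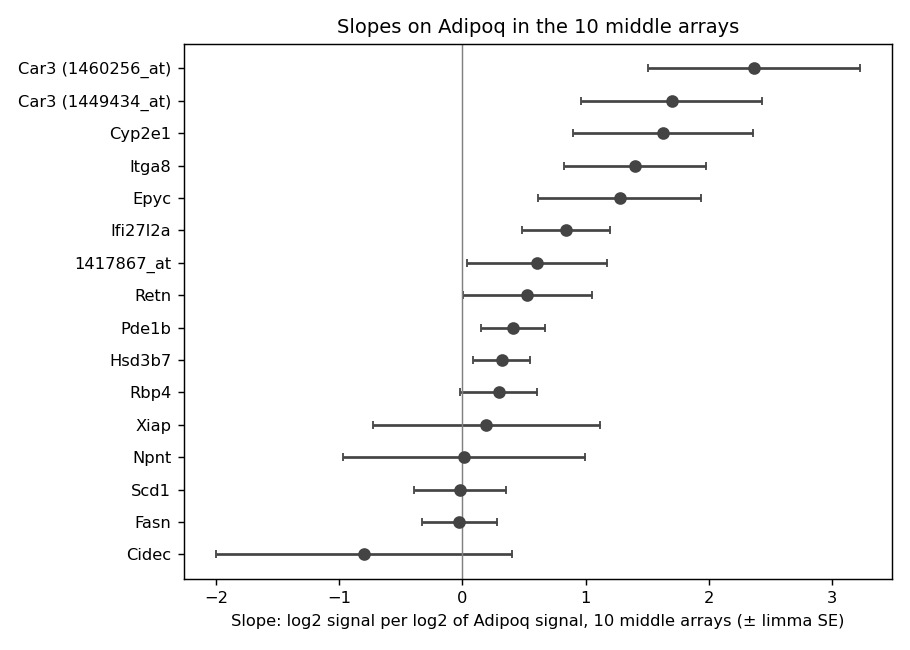
Slope of log2 signal on log2 Adipoq signal in the 10 middle arrays, with the standard error from limma. Plotted are genes counted in the other 18 arrays, the genes most like Adipoq over all 28, and the adipocyte markers Retn and Cidec. Itga8, Fasn, Hsd3b7, Rbp4 and Epyc were named only over all 28, so the middle arrays were not held out for them. Both probe sets of Car3, at 1.70 and 2.37, and Cyp2e1, at 1.63, lie highest of the genes plotted, which do not include the atrial genes, and Npnt, Scd1, Fasn and Cidec lie at or below 0.02.

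Between the strain and treatment groups, the 5 followers took the same course as Adipoq, which is measured in the same animals and so gives no independent evidence. In the strain comparison without treatment, limma called 1 of 45036 probe sets (0.00222%), with 1806 at an unadjusted p under 0.05, and none of the followers. In the 4 other comparisons (WY14643 in controls, WY14643 in del337TR, the strains when treated, and the interaction) limma called 0%, 0%, 0% and 0% of the array, with 3038, 2601, 3991 and 2207 probe sets at an unadjusted p under 0.05, and none of the followers. The comparisons share groups of arrays. All 5 followers were above 0 in both comparisons with untreated controls and below 0 in the other 3, and 4 had an unadjusted p under 0.05 for WY14643 in del337TR. The high set held 5 untreated and 0 treated del337TR hearts, the low set 0 and 4. The rule that picked the followers therefore favoured these directions, which are a description. Over all probe sets, 21546 and 20074 were above 0 in the comparisons with untreated controls, and 23900, 25058 and 25046 in the other 3.

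Car3 showed this order in its signals. Its mean was 634 ± 348 (SD, n = 7) in untreated del337TR hearts, 451 ± 232 in treated controls, 426 ± 422 in untreated controls and 204 ± 77.95 in treated del337TR hearts. The spread of the untreated controls, from 62.3 to 1311.5, covered all other groups. With WY14643 in del337TR its log2 difference was -1.49 ± 0.55 (SE, limma adjusted p = 0.794), and -1.09 with sex as a term. Cyp2e1 had 248 ± 136, 166 ± 72.6, 198 ± 198 and 89.0 ± 14.4 in the same order of groups, and differed by -1.24 ± 0.51 (limma adjusted p = 0.830) with WY14643 in del337TR. Retn and Cidec differed there by -1.08 ± 0.33 and -2.09 ± 0.67 (limma adjusted p = 0.767 for both). When group means of Adipoq were removed before ranking, 6 of the 9 high and 7 of the 9 low arrays were the same, and the difference was 1.81 for Car3, 1.49 for Cyp2e1, 0.37 for Cidec and 0.11 for Retn.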

How the data were processed

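Total RNA of 28 mouse hearts was measured on 1-colour arrays, per the labels' protocols. The authors deposited 1 intensity value per probe set and array on a linear scale, between 0 and 26183.2. RMA is named in the submitters' processing notes, its version not given in the sources used here. The values were not log2, and leaving off the outer 2% at either end, each array had a mean of 250.0, so they were treated as globally scaled signals. Signals below 0.1 were set to 0.1 and log2 was taken. The 64 control probe sets were left out of 45101. Of the rest, 34945 had 1 gene symbol, 932 several and 9160 none. For the lists, the probe set brightest on average stood for its gene.

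Arrays were ranked on Adipoq, and a probe set was counted where the 9 high and 9 low arrays did not overlap and the mean log2 signals differed by at least 1.5-fold. Slopes in the 10 middle arrays and 5 contrasts of 4 group means over 28 arrays were fitted with limma 3.58.1 (R 4.3.3), two-sided, with Benjamini-Hochberg adjustment over all probe sets. The scripts were tested on simulated data. The precision is limited by the number of arrays. Whether replicates came from separate litters is not stated, and p-values measure only the spread between these animals.

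The plan was to name at most the 20 largest higher and 10 largest lower counted genes. Only 5 probe sets were counted higher and 0 lower, so all counted genes are named. Also named are all matched members of the fat cell and brown fat lists and up to 4 members of every other list. The 10 genes with the highest correlation with Adipoq were added. Aplp2, Thbs4 and Neto2 came from the 90% rule. Genes were named through the probe annotation. Members and lists were chosen with earlier results of these data known. Alternatives were log2 of the signal plus 16, a filter at the 40th percentile, quantile normalization, median centring, other numbers of arrays, other rankings, adjustment for sex and an atrial score, a 2-fold limit, trend and robust settings, the replicate block and leaving out each array. The 90% rule, the male arrays alone and the atrial score in the slope were added after seeing the data.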

Additional observations from a re-analysis of the deposited data

Results flagged for a closer look

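Single arrays far from the rest of their group of 7 were looked for in 68 combinations of gene and group, of which chance flags about 1 in 20. The search used log2 signals, so each gap below is a share of the group's range on the log2 scale, beside signals on the linear scale. Of these, 5 combinations stood out.

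Npnt (1452107_s_at) in del337TR replicate 2 had a signal of 9.5 against 26.9 to 44.6 in the other arrays of its group, a gap of 0.673 of the log2 range. Car3, at its dimmer probe set, in del337TR replicate 5 had 20 against 150.5 to 364.2, a gap of 0.695. Cidec in replicate 6 of the controls with WY14643 had 3.3 against 15.7 to 32.8, a gap of 0.679, although this array ranked 9 for Adipoq. Xiap (1450232_at) in control replicate 7 had 74.6 against 18.5 to 32.1, a gap of 0.605. Retn in the same array had 32.3 against 90.2 to 183.1, a gap of 0.592, with Adipoq at rank 5.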

How the results depend on the processing

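The count of 5 higher probe sets was 5 with 16 added to each signal and 4 with a 2-fold limit. It was 3 with the 40th percentile filter, 3 with quantile normalization, 2 with median centring, 14 for the 7 highest against the 7 lowest arrays, 0 for 14 against 14, 1 after ranking on Adipoq minus its group mean, 0 after ranking on Retn and Cidec, 0 after adjustment for sex, 1 after adjustment for an atrial score, 34 under the 90% rule and 20 among male arrays. The count of 0 lower probe sets was 9 for 7 against 7, 38 under the 90% rule, 27 among males and 0 under the other alternatives. The causes were not tested. The male comparison changed both the sex and the number of arrays, and 7 against 7 both the number and the ranks. Leaving out each of the 18 arrays gave 5 to 8 higher (8 without control replicate 5) and 0 to 3 lower (3 without control replicate 6). The 5 were kept each time. The array left out was not replaced, so sets without overlap stayed without overlap, and the keeping of the 5 is no check of them. In the middle arrays the limma count of 0 was 0 to 1 (1 without del337TR replicate 5) and 0 under each other alternative.

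No follower was called in any contrast under any alternative, and the same held with the replicate block, in which 0 were called. The replicate numbers showed at most a weak pairing of the arrays. Deviations from the group means correlated with a median of 0.03 for 42 pairs of the same number, -0.003 for 252 pairs of different numbers. Correlations over 0.1 were seen in 5 of the 42 and in 11 of the 252. With the block the Adipoq difference for WY14643 in del337TR was -1.30 ± 0.42 (SE, limma adjusted p = 0.767), and over the leave-one-out fits it ran from -1.49 to -1.09. Arrays with Retn and Cidec on top shared 6 of the 9 high and 5 of the 9 low arrays, and 1 high array became low. Signals under about the array median, such as those of Npnt and Cidec, depended on the added constant.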
